A study of Mus musculus with 6 samples.

Results

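The lipid synthesis genes described here are 35 genes whose products make fatty acids, glycerophospholipids and sterols, the lipids from which lung surfactant is built. They were chosen by name, as every probe set annotated to exactly 1 of the 35 symbols, and all 35 were on the array, with 87 probe sets among the 45037 tested. Each gene was represented by its probe set with the highest mean over the 6 arrays, which gave 35 members among 18193 genes. RNA came from whole lungs taken on postnatal day 15, hybridised to Affymetrix MOE430 V2 chips with 1 array per sample. There were 3 samples with the genotype label Foxa2-/- and 3 of control littermates labelled wildtype. Whether the samples come from different animals is not stated, and lungs below means samples. The airway and alveolar epithelium uses Foxa2 as a forkhead regulator of transcription, and the study asked which of its targets go with type 2 (Th2) inflammation and an excess of goblet cells. Both groups carry the strain label SPC(+)Cre(-) with doxycycline (Dox) from embryonic day 6.5 to 12.5. SPC is surfactant protein C, a protein of alveolar type II cells, and the labels do not describe the construct or name a Cre driver, so the cells in which Foxa2 was deleted are not given. The label Cre(-) goes against the genotype label of the Foxa2-/- samples. Every value below is a deposited log2 value, and a difference is Foxa2-/- minus control on that scale, where 1 unit is 2-fold.

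Alveolar type II cells make surfactant, a film of phospholipid, cholesterol and protein that lowers surface tension in the air space. Its main lipid is a phosphatidylcholine with saturated acyl chains, built from fatty acids made in the cell or taken up from blood and joined to choline through the CDP-choline pathway. Transcription of the fatty acid and sterol enzymes is driven by the sterol regulatory element binding proteins encoded by Srebf1 and Srebf2, which Scap escorts out of the endoplasmic reticulum and Insig1 holds back.

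Foxa2 was lower in every Foxa2-/- lung, at 7.72 (replicate 1), 5.38 (replicate 2) and 5.13 (replicate 3), against control values of 10.28, 10.56 and 10.28. The difference of -4.30 (SE 0.66) had an adjusted p of 0.0599 and did not pass the threshold of 0.05. The groups did not overlap, and no source used here says whether its probe set covers deleted sequence. Foxa2-/- replicate 1 kept the most Foxa2 signal and was also the least like the others over all probe sets, with Pearson's r of 0.976 and 0.977 to Foxa2-/- replicates 2 and 3, which reached 0.992 with each other. Over all genes, 104 of 18193 passed, or 0.572%, with 86 higher and 18 lower. The difference between the 3-prime and 5-prime Gapdh control probe sets, a sign of RNA integrity, was 0.91 to 0.97 in Foxa2-/- lungs and 1.06 to 1.23 in controls, and its part in the results below was not tested. Sample titles read control or KO and then a number of unstated meaning. That number is common to Foxa2-/- replicates 2 and 3 and to control replicate 2. Values within those 3 arrays are given as the within-number difference.

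By their brightest probe sets, the lipid synthesis genes were mostly alike in Foxa2-/- and control lungs. Of the 35 members 1 rose (Me1), none fell and 34 did not pass the limma test adjusted over all genes, beside 0.572% of all genes that passed (0.473% higher and 0.0989% lower). At an unadjusted p under 0.05 there were 4 members (11.4%), 3 higher and 1 lower, beside 12.3% of all genes (7.28% higher and 5.07% lower). The Foxa2-/- and control values did not overlap for 6 members (17.1%), 5 above and 1 below, beside 19.6% of all genes (10.8% above and 8.73% below). The difference was above 0 for 20 members (57.1%), beside 50.8% of all genes. The median difference of the members was 0.05, beside 0.01 over all genes, and 26 of 35 differed by less than 0.25. For 33 of the 35 the 95% interval of the difference, not adjusted for the number of genes, lay inside 2-fold in either direction. The exceptions were Me1 and Mvd. By mean signal, 11 of the 35 stood above the 90th percentile of all genes. With the second brightest probe set, where a gene has several, the median difference of the members was 0.15. In whole lung, a change in the number of cells that express a gene and a change in RNA per cell cannot be told apart.

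**Figure D1:**
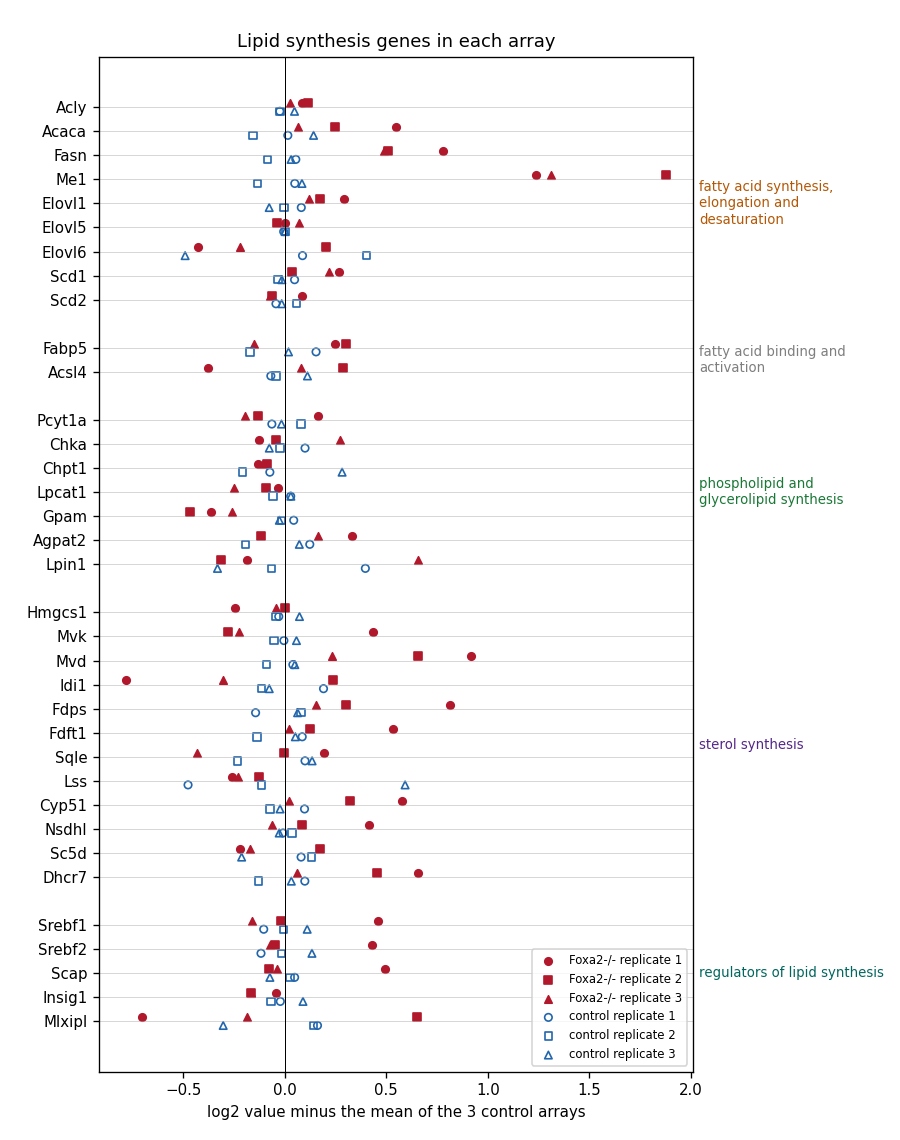
Each row is 1 lipid synthesis gene, grouped by role, and each point is 1 array: its log2 value minus the mean of the 3 control arrays (filled red, Foxa2-/-; open blue, control; the shape gives the replicate). The Foxa2-/- points of Me1 lie well to the right of its control points, while for 29 of the 35 genes the points of the groups overlap.

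**Figure D2:**
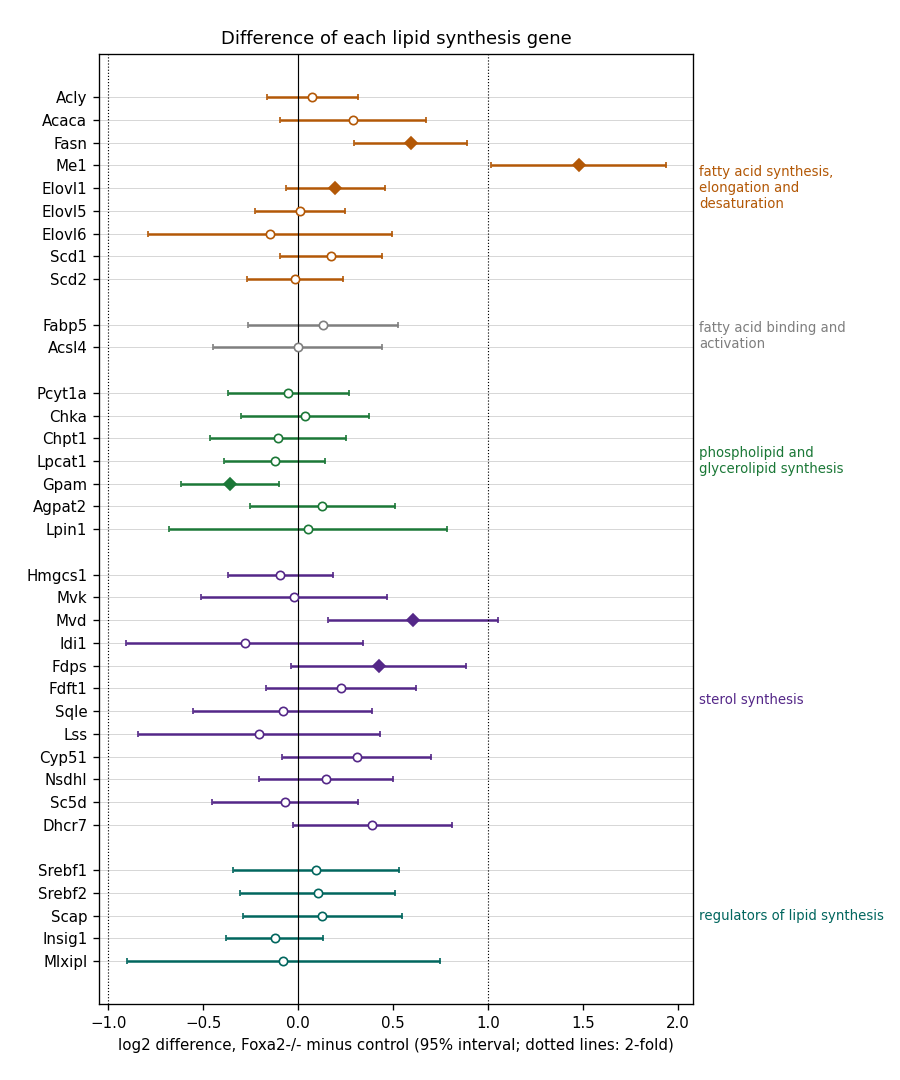
Points are log2 differences, Foxa2-/- minus control, with 95% limma intervals (n = 3 each); filled diamonds mark the 6 genes whose groups do not overlap, and dotted lines mark 2-fold. Only the intervals of Me1 and Mvd reach past the line of 2-fold, and that of Me1 (1.02 to 1.94) lies wholly beyond it.

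Me1 encodes the cytosolic malic enzyme, which turns malate into pyruvate and supplies NADPH, the reducing power for fatty acid synthesis. Its level was 11.21, 11.85 and 11.28 in the Foxa2-/- lungs (replicates 1 to 3), against 10.02, 9.84 and 10.05 in control lungs. All 3 Foxa2-/- lungs were above all controls, and Foxa2-/- replicate 2 was the highest. The means of 11.45 ± 0.35 in Foxa2-/- lungs and 9.97 ± 0.12 in control lungs (log2, SD, n = 3 each) differed by 1.48 (SE 0.19, adjusted p = 0.0412), a 2.78-fold rise that placed Me1 at rank 73 of all genes by p. Its dimmer probe set read 9.39, 10.34 and 9.74 in Foxa2-/- lungs and 8.42, 8.15 and 8.32 in control lungs, a difference of 1.53 (SE 0.25), so both probe sets show a difference of like size. When all 45037 probe sets were tested singly, the adjusted p of the brighter one was 0.0731 and that of the dimmer one 0.104, and neither passed.

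The call of Me1 rested on nearly every array. Without Foxa2-/- replicate 1 it passed with a difference of 1.60 (adjusted p = 0.0336). It no longer passed without Foxa2-/- replicate 2 (1.28, adjusted p = 0.0759) or Foxa2-/- replicate 3 (1.56, adjusted p = 0.105). The same held without control replicate 1 (1.501, adjusted p = 0.178), control replicate 2 (1.41, adjusted p = 0.165) or control replicate 3 (1.52, adjusted p = 0.106). Without control replicate 1, control replicate 2 or Foxa2-/- replicate 3, none of the 18193 genes passed. The within-number difference of Me1 was 1.73, from 2 Foxa2-/- arrays and 1 control.

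**Figure D3:**
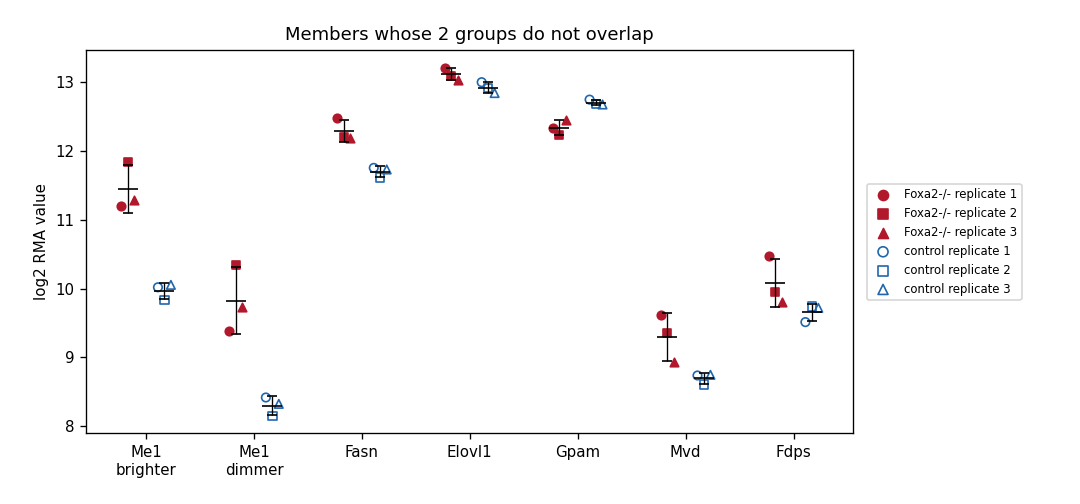
Log2 values of each array for the 6 lipid synthesis genes whose groups do not overlap, with both probe sets of Me1; Foxa2-/- (filled red) stands left of control (open blue), and bars are mean and SD (n = 3). The gap of Me1 is wider than that of any of the other 5 genes, Gpam is the 1 gene that is lower in Foxa2-/- lungs, and the groups of Elovl1 and Fdps are nearly in contact.

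The promoter of Me1 is shown because Me1 is the 1 member that passed, with those of Fasn, Hmgcs1 and Pcyt1a for comparison as the fatty acid synthase, an early sterol enzyme and the enzyme that sets the pace of phosphatidylcholine synthesis. The sequences are RefSeq windows of build GRCm38.p6, 250 bases before to 50 after an annotated start site, on the gene's strand. Capitals mark matches on either strand to the antioxidant response core TGACNNNGC, the sterol regulatory element TCACNCCAC, the forkhead motif TGTTTAC or the E-box CACGTG.
Me1, chr9:86695865-86696164, minus strand: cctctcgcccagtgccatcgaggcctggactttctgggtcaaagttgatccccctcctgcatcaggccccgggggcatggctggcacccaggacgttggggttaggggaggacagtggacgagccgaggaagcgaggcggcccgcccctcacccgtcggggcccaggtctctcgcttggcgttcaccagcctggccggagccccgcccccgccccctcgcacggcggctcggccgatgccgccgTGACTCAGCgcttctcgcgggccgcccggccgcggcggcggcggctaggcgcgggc
Fasn, chr11:120824498-120824797, minus strand: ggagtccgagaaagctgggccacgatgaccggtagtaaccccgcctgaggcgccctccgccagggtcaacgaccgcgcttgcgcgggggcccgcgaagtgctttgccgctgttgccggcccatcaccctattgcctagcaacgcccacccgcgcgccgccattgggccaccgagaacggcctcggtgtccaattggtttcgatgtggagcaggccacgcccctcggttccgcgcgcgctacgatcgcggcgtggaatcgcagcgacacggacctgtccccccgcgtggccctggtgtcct
Hmgcs1, chr13:119690101-119690400, plus strand: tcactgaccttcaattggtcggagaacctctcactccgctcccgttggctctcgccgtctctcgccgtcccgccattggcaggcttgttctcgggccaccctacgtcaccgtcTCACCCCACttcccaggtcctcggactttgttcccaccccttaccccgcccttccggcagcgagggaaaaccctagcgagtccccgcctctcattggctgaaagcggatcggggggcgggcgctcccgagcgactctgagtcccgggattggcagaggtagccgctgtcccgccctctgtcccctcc
Pcyt1a, chr16:32430671-32430970, plus strand: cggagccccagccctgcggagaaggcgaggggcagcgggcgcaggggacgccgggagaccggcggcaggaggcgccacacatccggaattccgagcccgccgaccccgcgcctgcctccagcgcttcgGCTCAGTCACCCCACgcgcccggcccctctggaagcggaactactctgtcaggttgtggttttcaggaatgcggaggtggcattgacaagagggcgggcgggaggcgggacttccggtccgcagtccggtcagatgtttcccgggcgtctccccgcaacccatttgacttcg
Me1 has a second window, chr9:86687228-86687527, which held none of these motifs and is not printed. In the window shown the match reads TGACTCAGC and its first base lies at -6 from the start site. These 9 letters are the Me1 match spelled in full, so their presence in Me1 is no test, and a fixed string is rarer than a looser one. They stand in 0.454% of all 32851 promoter windows and in no other of the 40 windows of the members. The looser core stands in 12.4% of all windows and in 5 of the 40 member windows (12.5%). Overlapping windows of Pcyt1a are counted separately there. The 9 letters also contain an AP-1 site, a letter pattern known for AP-1 factors as well as for NRF2, a regulator of NADPH and glutathione genes of which Me1 is a known target. The part of these factors in the difference of Me1 was not tested. In Pcyt1a the capitals hold an antioxidant core and a sterol element that share 3 bases.

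The windows matched 29 of the 35 members, and Scd1, Scd2, Fabp5, Fdps, Fdft1 and Sqle are not among them. The sterol element stood in 4 of 40 member windows, those of Hmgcs1, Pcyt1a and Mlxipl, and in 1.24% of all windows. Windows of the same gene can overlap, and those of Pcyt1a with this element hold the same site. The forkhead motif stood in 1 member window, that of Elovl6 (2.5%), and in 3.65% of all windows. The E-box stood in 7 member windows (17.5%), those of Elovl5, Sc5d, Dhcr7, Scap, Insig1 and Mlxipl, and in 7.15% of all windows. The windows of Scap overlap and hold the same E-box. The Fasn window and those of Mvd and Gpam held none of these letter patterns. These motifs were chosen with the expression results known, and a match describes letters only.

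Among the fatty acid enzymes, 1 of 9 rose (Me1), none fell and 8 did not pass, with a median difference of 0.17. Fasn, the multienzyme that builds palmitate, had 12.48, 12.21 and 12.19 in Foxa2-/- lungs against 11.76, 11.62 and 11.73 in control lungs. All 3 Foxa2-/- lungs were above all controls, and the gap between the groups was wider than the range within either. The difference of 0.59 (SE 0.13, 95% interval 0.29 to 0.89), 1.51-fold, had an adjusted p of 0.119 and did not pass. It passed with array weights (0.52, adjusted p = 0.0402) and with a random block for the title number (0.60, adjusted p = 0.0371), and its within-number difference was 0.58.

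The enzymes directly before Fasn moved less. Acly, which makes cytosolic acetyl-CoA from citrate, ranged from 13.28 to 13.37 in Foxa2-/- lungs and 13.23 to 13.30 in control lungs, a difference of 0.07 (SE 0.10). Acaca, the acetyl-CoA carboxylase that commits it to fatty acids, ranged from 10.77 to 11.25 in Foxa2-/- lungs and 10.55 to 10.84 in control lungs, a difference of 0.29 (SE 0.16, adjusted p = 0.537). By these brightest probe sets the groups of both enzymes overlapped. All 6 probe sets of Acly were higher in Foxa2-/- lungs, by 0.05 to 0.20. For some of its dimmer ones, such as that with 0.20, all Foxa2-/- values were above all controls.

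Desaturases and elongases, which shape the chains that palmitate enters, did not pass either. Scd1, a stearoyl-CoA desaturase, ranged from 13.61 to 13.84 in Foxa2-/- lungs and 13.54 to 13.62 in control lungs (difference 0.17, SE 0.11). That probe set is near the top of the scale, and the dimmer one of Scd1 differed by 0.94 (SE 0.33, adjusted p = 0.382 over all probe sets). Scd2, the paralogue of Scd1, differed by -0.02 (SE 0.11), and its dimmer probe sets by 0.20 and -0.15. Elovl1, which extends saturated chains to very long ones, had 13.21, 13.10 and 13.04 in Foxa2-/- lungs and 13.00, 12.92 and 12.84 in control lungs, so the groups did not overlap, by a gap smaller than the range within either group (difference 0.19, SE 0.11, adjusted p = 0.542). Elovl5, an elongase of polyunsaturated chains, differed by 0.01 (SE 0.10) and Elovl6, which lengthens palmitate, by -0.15 (SE 0.27). The highest value on any array was 14.88.

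The fatty acid carrier Fabp5 had 13.15, 13.20 and 12.75 in Foxa2-/- lungs against 13.06, 12.73 and 12.92 in control lungs. The groups overlapped, with a difference of 0.13 (SE 0.16, adjusted p = 0.782). Acsl4 activates long polyunsaturated fatty acids with CoA. Its brightest probe set ranged from 12.11 to 12.77 in Foxa2-/- lungs and 12.42 to 12.60 in control lungs, a difference of -0.0044 (SE 0.19). Its dimmer probe sets differed by 0.05 (SE 0.49) and 0.39 (SE 0.18). In the last of these all Foxa2-/- values were above all controls.

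None of the 7 phospholipid and glycerolipid enzymes passed with limma, and 1 of them, Gpam, had an unadjusted p under 0.05. Gpam, the mitochondrial acyltransferase that starts glycerolipid synthesis, had 12.34, 12.24 and 12.45 in Foxa2-/- lungs against 12.75, 12.69 and 12.68 in control lungs. All 3 Foxa2-/- lungs were below all controls, the 1 member with that pattern. The difference of -0.36 (SE 0.11, 95% interval -0.62 to -0.10, adjusted p = 0.235) was 1.29-fold toward lower values, and the within-number difference was -0.345. Its dimmer probe set, at a mean of 6.57 in Foxa2-/- lungs and 6.66 in control lungs, differed by -0.09 (SE 0.20).

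The CDP-choline pathway, the route to surfactant phosphatidylcholine, showed differences no larger than 0.11 in size at its 3 steps by the brightest probe sets, and some other probe sets differed more. Chka, the choline kinase of the first step, ranged from 10.98 to 11.37 in Foxa2-/- lungs and 11.03 to 11.20 in control lungs (difference 0.03, 95% interval -0.30 to 0.37), and its other probe sets differed by 0.34 (SE 0.26) and -0.19 (SE 0.24). Pcyt1a, which makes CDP-choline, ranged from 9.78 to 10.14 in Foxa2-/- lungs and 9.92 to 10.06 in control lungs (difference -0.05, 95% interval -0.37 to 0.27), and its other probe sets differed by -0.23 to 0.05. Chpt1, which moves the choline group onto diacylglycerol, differed by -0.11 (95% interval -0.47 to 0.25). Its 4 probe sets were all lower in Foxa2-/- lungs, by 0.11 to 0.84 on the log2 scale, and the widest of these gaps came with a value of 9.14 in Foxa2-/- replicate 1 against 10.97 and 10.94 in the other Foxa2-/- lungs.

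Lpcat1, the type II cell acyltransferase that remodels phosphatidylcholine to its saturated form, ranged from 13.49 to 13.71 in Foxa2-/- lungs and 13.68 to 13.77 in control lungs, a difference of -0.13 (SE 0.11, adjusted p = 0.694). Of its 5 probe sets 4 were lower in Foxa2-/- lungs and 1 higher. Agpat2, which adds the next acyl chain after Gpam, differed by 0.13 (SE 0.16), and Lpin1, the phosphatidate phosphatase that gives diacylglycerol, by 0.05 (SE 0.31). Lpin1 had the widest spread of this group, 9.58 to 10.55 in Foxa2-/- lungs and 9.56 to 10.29 in control lungs. Its other probe set differed by -0.17 (SE 0.30).

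By their brightest probe sets, none of the 12 sterol enzymes passed with limma, and 1, Mvd, had an unadjusted p under 0.05. A dimmer probe set of Cyp51 differed by 0.40 (limma unadjusted p = 0.0363), and its dimmest by -0.11. Mvd, which decarboxylates mevalonate diphosphate to the isoprene unit, had 9.61, 9.35 and 8.93 in Foxa2-/- lungs against 8.74, 8.61 and 8.74 in control lungs. All 3 Foxa2-/- lungs were above all controls, but they spread more widely. The difference was 0.60 (SE 0.19, 95% interval 0.16 to 1.05, adjusted p = 0.258), 1.52-fold, with 0.64 for its dimmer probe set, 0.44 without Foxa2-/- replicate 1 and 0.53 within the shared number.

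Fdps, which joins isoprene units into farnesyl diphosphate, had 10.47, 9.96 and 9.81 in Foxa2-/- lungs and 9.51, 9.74 and 9.72 in control lungs. The groups did not overlap, by a gap smaller than the range within either group. Its difference of 0.42 (SE 0.19, adjusted p = 0.443) was 0.23 without Foxa2-/- replicate 1 and 0.15 within the shared number. Dhcr7, the reductase of the last step to cholesterol, differed by 0.39 (SE 0.17, adjusted p = 0.438), and Cyp51, the lanosterol demethylase, by 0.31 (SE 0.16, adjusted p = 0.519), with overlapping groups.

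The entry enzyme Hmgcs1, which makes HMG-CoA, ranged from 13.10 to 13.34 in Foxa2-/- lungs and 13.30 to 13.41 in control lungs, a difference of -0.10 (SE 0.12). Idi1, the isomerase of the isoprene unit, differed by -0.28 (SE 0.26), by -0.03 without Foxa2-/- replicate 1 and by 0.08 within the shared number. Lss, which closes lanosterol, differed by -0.21 (SE 0.27). Lss values spread from 8.50 to 9.57 among the controls, and its 2 dimmer probe sets differed the other way, by 0.26 and 0.29. Fdft1, squalene synthase, differed by 0.23 (SE 0.16) and Nsdhl, which strips methyl groups from the sterol ring, by 0.15 (SE 0.15). Mvk, mevalonate kinase, differed by -0.02, Sqle, the squalene epoxidase, by -0.08 and Sc5d, a sterol desaturase, by -0.07. These are the differences of the brightest probe sets. The dimmer probe set of Mvk differed by 0.20, and those of Sc5d by -0.35 and -0.13.

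Sterol enzymes differed among the Foxa2-/- lungs. In Foxa2-/- replicate 1, 8 of the 12 had their highest value of the 6 arrays (Mvk, Mvd, Fdps, Fdft1, Sqle, Cyp51, Nsdhl and Dhcr7) and 3 their lowest (Hmgcs1, Idi1 and Sc5d). The median of the 12, each taken relative to its own mean over 6 arrays, was 0.38, 0.07 and -0.13 in the Foxa2-/- lungs (replicates 1 to 3), against -0.04, -0.09 and -0.08 in control lungs. Their summed level, which the brightest genes set, was 14.39, 14.43 and 14.26 in Foxa2-/- lungs and 14.32, 14.26 and 14.37 in control lungs, so by that measure Foxa2-/- replicate 1 did not stand apart. Over all 35 members 18 (51.4%) were highest in Foxa2-/- replicate 1, beside 34.3% of all genes.

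By their brightest probe sets, the 5 regulators of lipid synthesis differed by at most 0.13 in size. None of these probe sets passed the limma test or had an unadjusted p under 0.05. The dimmer probe set of Scap differed by 0.65 (SE 0.25, limma unadjusted p = 0.0356, adjusted p = 0.425 over all probe sets). That of Srebf2 differed by 0.19 (SE 0.15). Insig1, the retention factor for the sterol sensor, had 12.37, 12.25 and 12.25 in Foxa2-/- lungs against 12.39, 12.35 and 12.50 in control lungs. The groups overlapped, with a difference of -0.13 (SE 0.11, adjusted p = 0.688). Srebf1, the driver of fatty acid genes, ranged from 10.91 to 11.53 in Foxa2-/- lungs and 10.97 to 11.18 in control lungs (difference 0.09, SE 0.18), and Srebf2, the driver of sterol genes, differed by 0.10 (SE 0.17). Scap, the escort protein, differed by 0.13 (SE 0.17). Foxa2-/- replicate 1 had the highest of the 6 values for Srebf1, Srebf2 and Scap by their brightest probe sets. Without it the differences of these probe sets were -0.09, -0.06 and -0.06. Mlxipl, which encodes the glucose-responsive factor ChREBP, was the dimmest member, 6.22 to 7.58 in Foxa2-/- lungs and 6.62 to 7.09 in control lungs, and differed by -0.08 (SE 0.34).

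**Figure D4:**
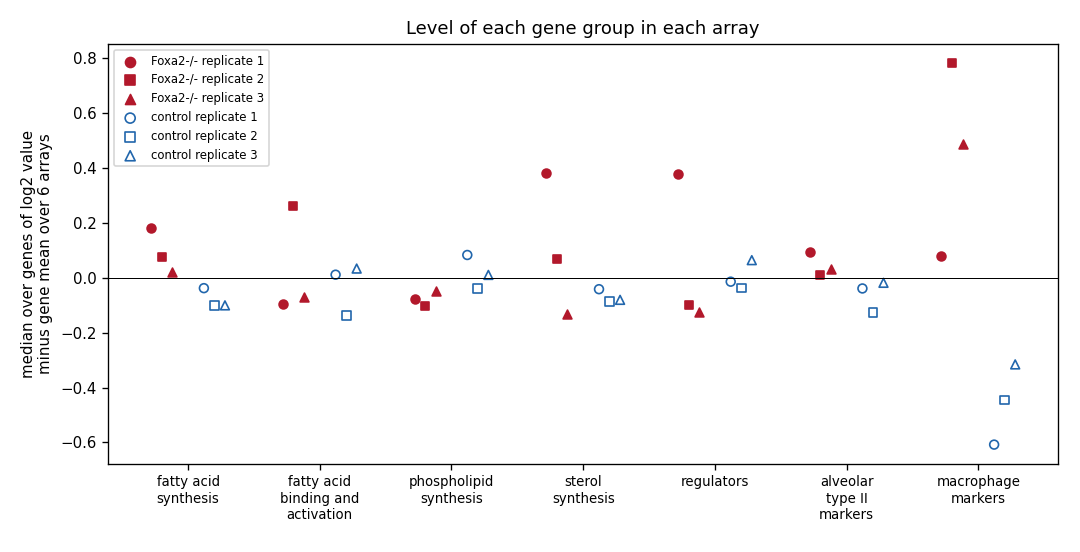
For each gene group and array, the median over genes of the log2 value minus that gene's mean over 6 arrays; Foxa2-/- (filled red) stands left of control (open blue), and the shape gives the replicate. Sterol enzymes and regulators are highest in Foxa2-/- replicate 1 (0.38 each), sterol enzymes also lie above the controls in Foxa2-/- replicate 2 (0.07) and below them in replicate 3 (-0.13), fatty acid enzymes lie above the controls in all 3 Foxa2-/- arrays, and macrophage markers reach 0.78 in Foxa2-/- replicate 2.

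The members varied more among Foxa2-/- lungs than among controls. The SD over 3 arrays was larger in the Foxa2-/- group for 31 of 35 members (88.6%), beside 65.1% of all genes. Its median over the members was 0.24 in Foxa2-/- lungs and 0.097 in control lungs, beside 0.21 in Foxa2-/- lungs and 0.15 in control lungs over all genes. The group medians of the fatty acid enzymes were 0.18, 0.08 and 0.02 in the Foxa2-/- lungs (replicates 1 to 3), against -0.04, -0.10 and -0.10 in control lungs. Those of the phospholipid enzymes ran from -0.10 to -0.05 in Foxa2-/- lungs and -0.04 to 0.08 in control lungs.

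**Figure D5:**
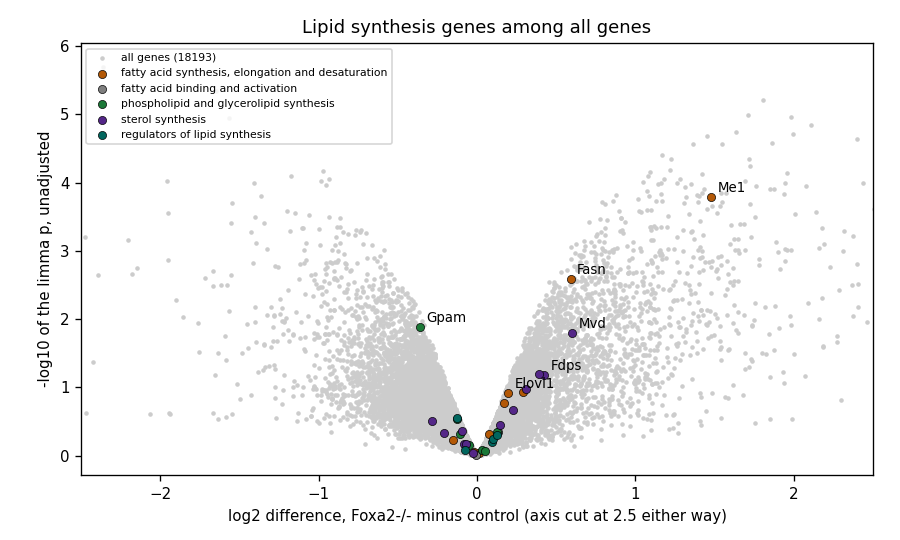
Each grey point is 1 of 18193 genes, with its log2 difference (Foxa2-/- minus control) across and the -log10 of its unadjusted limma p upward; coloured points are the lipid synthesis genes by role, and 43 genes with differences beyond 2.5 are outside the axis. Me1 stands apart from the other 34 members, most of which lie near the foot of the plot.

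Other genes of the same pathways were read from a list. Of 85 related genes listed, 74 were measured, none passed with limma and 8 had an unadjusted p under 0.05 (10.8%), 5 higher and 3 lower, beside 12.3% of all genes (7.28% higher and 5.07% lower). Their median difference was 0.04. With array weights 1 of them, Ppara, passed (lower). Among regulators the smallest p values were those of Pparg, Ppara and Prkaa2. Pparg, the nuclear receptor of fat storage and alveolar macrophages, averaged 9.29 ± 0.15 in Foxa2-/- lungs and 8.73 ± 0.10 in control lungs (SD, n = 3 each), a difference of 0.56 (SE 0.12, adjusted p = 0.134). Ppara, the nuclear receptor of fatty acid oxidation, averaged 6.97 ± 0.22 in Foxa2-/- lungs and 7.60 ± 0.13 in control lungs (SD, n = 3 each), a difference of -0.63 (SE 0.15, adjusted p = 0.156). Prkaa2, a catalytic subunit of the AMP-activated kinase that shuts down acetyl-CoA carboxylase, differed by -0.78 (SE 0.25, adjusted p = 0.277).

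Among related fatty acid genes the smallest p values were those of the elongases Elovl7 (0.62, SE 0.19) and Elovl4 (-0.48, SE 0.16) and of Acss2, which makes acetyl-CoA from acetate (-0.45, SE 0.20). Idh1, another source of cytosolic NADPH, differed by 0.02 (SE 0.10). Among related phospholipid genes they were Cds1, a CDP-diacylglycerol synthase (0.43, SE 0.14), Pla2g15, the lysosomal phospholipase (0.68, SE 0.23), and Lpcat4, a lysophospholipid acyltransferase (0.38, SE 0.13). Among related sterol genes they were Ebp, the sterol isomerase (0.30, SE 0.13), Hsd17b7, a sterol ketoreductase (-0.35, SE 0.16), and Ggps1, which makes geranylgeranyl diphosphate (-0.22, SE 0.11). Adjusted p values of these 9 named for their p ran from 0.252 to 0.507.

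Markers of the cells that could carry these genes were read in the same arrays. Of 11 measured alveolar type II markers none passed with limma and 1 had an unadjusted p under 0.05, Sftpd (0.68, adjusted p = 0.0719). Their summed level was 17.21 to 17.24 in Foxa2-/- lungs and 16.97 to 17.12 in control lungs. Of the 11, 9 were higher and 2 lower in Foxa2-/- lungs, with a median difference of 0.06. The Foxa2-/- values lay above all controls for Sftpd, Napsa (0.34), Sftpa1 (0.32) and Ctsh (0.21), or 36.4% of the 11, beside 10.8% of all genes. The 2 lower ones were Sftpc (-0.03) and Abca3 (-0.07). The part of type II cells in the lipid genes was not tested. Of 16 measured macrophage markers 3 rose (Cd68, Itgax and Trem2), beside 0.473% of all genes. An unadjusted p under 0.05 was reached by 9, beside 12.3% of all genes. Of the 16, 14 were higher and 2 lower, Fabp1 (-1.05) and Cd36 (-0.17). The groups overlapped for 6, among them Marco (0.18) and Lpl (0.19). The summed level of the 16 was 15.90 to 16.39 in Foxa2-/- lungs and 15.63 to 15.71 in control lungs. Their median relative to the gene means was 0.08, 0.78 and 0.49 in Foxa2-/- replicates 1 to 3. Foxa2-/- replicate 2 was the highest array by this median for macrophage, eosinophil (1.43), T cell (1.23) and dividing-cell (0.96) markers. Siglecf stands in both the macrophage and the eosinophil list. Goblet markers were highest in Foxa2-/- replicate 1 (1.33), as 34.3% of all genes were. The part of any of these cells in the differences of Me1 and Fasn was not tested.

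Of 5 eosinophil genes 3 rose, beside 0.473% of all genes. In the other lists no gene passed with limma, but several lists were higher in Foxa2-/- lungs. Goblet markers had a median difference of 1.25, with 6 of 7 higher by over 1 and Clca1 by 3.50. T cell markers had a median of 1.02, with 5 of 5 higher and 2 not overlapping. Dividing-cell markers had a median of 0.89, with 5 of 5 higher and 4 not overlapping. Over all genes 50.8% were higher, and 10.8% had all Foxa2-/- values above all controls. Medians were 0.13 for lipofibroblast, -0.16 for alveolar type I, -0.18 for club cell and -0.30 for adipocyte markers. An unadjusted p under 0.05 was reached by 3 of 7 goblet, 2 of 5 T cell, 3 of 5 dividing-cell, 2 of 6 lipofibroblast, 2 of 7 alveolar type I, 1 of 6 club cell and 1 of 5 adipocyte markers, beside 12.3% of all genes. No value is 0 on this scale. The adipocyte gene Adipoq was dim, 4.36 to 5.50, in Foxa2-/- lungs and read 8.31, 4.44 and 6.37 in the controls, so its spread was mostly among controls, and its part in the lipid genes was not tested.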

How the data were processed

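The deposited values are log2 values made with RMA, per the submitters' processing notes. RMA subtracts background, equalises the distributions of the arrays and gives 1 summary per probe set. No version or setting is stated in the sources used here. Values of 2.36 to 14.88, with array medians of 7.85 to 7.91, fit that scale. Because RMA equalises arrays, a shift of most genes one way would not be seen.

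Of 45101 probe sets 64 array controls were left out, and 34945 of the rest had 1 symbol in the platform annotation. With R 4.3.3, limma 3.58.1 (functions lmFit and eBayes, two-sided, no covariate, no filter on dim signal) compared 3 Foxa2-/- with 3 control arrays over 18193 genes, and a gene passed at a p under 0.05 after Benjamini-Hochberg adjustment. The 3 arrays per group limit the precision. Whether the arrays come from different animals is not stated, so the p-values rest on a spread between samples that may be technical. Replicate numbers follow accession order and pair nothing; no 2 arrays were identical. The test was tried on simulated data.

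Members and lists were chosen with earlier results of these data known. Members are given array by array if they passed, if their groups did not overlap at an unadjusted p under 0.05, or if they had the smallest p of their role; Elovl1 and Fdps were added after their values were seen, as were the dimmer probe sets, Idh1 and the markers named singly. Of each related list up to 3 genes with the smallest p are named. Promoter sequences are from RefSeq, GRCm38.p6.

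Alternatives were median centring, cyclic loess, filters on dim probe sets, trend and robust moderation, array weights, the shared title number as a block or restriction (statmod 1.5.0), each array left out, other probe set rules, least squares without moderation, and other thresholds. Scanner files were not used.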

Additional observations from a re-analysis of the deposited data

How the results depend on the processing

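The number of arrays limits every call. With all arrays 1 lipid synthesis gene, 104 of all genes and no related lipid gene passed. Leaving out each array in turn gave 0 to 1 lipid synthesis genes, 0 to 249 of all genes and a Foxa2 difference of -5.12 (adjusted p = 0.00227, without Foxa2-/- replicate 1) to -3.825. No lipid synthesis gene passed with cyclic loess (48 of all genes) or with the second brightest probe set (70 of all genes). None passed with least squares without moderation either (0 of all genes). At an unadjusted p under 0.05 these fits held 6, 6 and 5 members. The title number as a fixed block leaves the same 3 arrays as a restriction to them, with 1 control. Both settings are therefore 1 fit, of which only differences are given. Over all settings Me1 lay between 1.28 and 1.73. Array weights gave 2 lipid synthesis genes (Me1 and Fasn), 607 of all genes, 1 related gene and a Foxa2 difference of -4.95 (adjusted p = 0.00368). The random block gave the same 2 members, 399 of all genes and -4.64 (0.0177). Foxa2 also passed over probe sets brighter than the median (-4.30, adjusted p = 0.0492) and with trend and robust settings (-4.30, 0.044). At an adjusted p under 0.1 there were 320 of all genes and 1 member. The median difference of the members stayed between 0.01 and 0.15. The 6 members followed under each setting (Me1, Fasn, Fabp5, Gpam, Mvd and Insig1) kept their direction in all of them. For Me1, Fasn, Gpam and Mvd, whose groups do not overlap, leaving out arrays could not have reversed it. Some members outside these 6 changed direction within the shared number, such as Idi1 (-0.28 to 0.08) and Srebf1 (0.09 to -0.08). The labels give no replicate numbers, and the shared title number, run as a block above, joins 1 control with 2 Foxa2-/- arrays. The causes were not tested.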

Other observations

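Probe sets of the same gene did not always give the same difference. Of the 27 members with more than 1 probe set, 16 had all of them on the same side of 0 and 11 did not. The dimmer probe set of the desaturase Scd1 read 10.22, 8.97 and 9.55 in Foxa2-/- lungs and 8.96, 8.40 and 8.56 in control lungs, a difference of 0.94 (SE 0.33, adjusted p = 0.382 over all probe sets), where the brighter one, near the top of the scale, gave 0.17. That of the escort protein Scap differed by 0.65 (SE 0.25, adjusted p = 0.425), where the brighter one gave 0.13. Over the 87 probe sets 52 were higher and 35 lower in Foxa2-/- lungs, and none passed with limma (smallest adjusted p 0.0731).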
